A study of Mus musculus with 32 samples.

Results

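Polysome-associated transcripts of Sertoli cells were compared 1 h after follicle-stimulating hormone (FSH) with those of hormone-deprived animals. The comparison rests on 4 of the 32 arrays of the series, chosen by their sample titles: 2 immunoprecipitates (IPs) taken 1 h after FSH and 2 IPs taken after acyline alone. All 4 came from testes of adult AMH-Cre:RiboTag mice, in which Cre under the anti-Müllerian hormone promoter switches on an HA-tagged ribosomal protein in Sertoli cells, so that anti-HA beads recover their polysomes from a whole testis homogenate. Both groups had received daily acyline, a gonadotropin-releasing hormone antagonist that withdraws pituitary luteinizing hormone (LH) and FSH, and the FSH group then received a single intraperitoneal injection of purified human FSH. The same series holds 2 Sertoli IPs taken 4 h after FSH, 5 Sertoli IPs and 5 matching inputs of saline-treated mice, 4 Sertoli IPs of a cetrorelix and testosterone experiment, and IPs and inputs of Cyp17iCre:RiboTag mice, whose Cre is active in Leydig cells. Of the Cyp17iCre arrays, 2 IPs taken 1 h after an injection of human LH, given after acyline, and 2 IPs after acyline alone were compared. All animals carried 1 copy each of Cre and of the tagged allele, also the controls.

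FSH acts in the testis through a receptor that only Sertoli cells carry. The receptor couples to adenylyl cyclase, cyclic AMP activates protein kinase A, and the kinase phosphorylates CREB, which binds cyclic AMP response elements and can switch on immediate early genes within minutes and without new protein. In Sertoli cells FSH is known to support the nutrition of germ cells, inhibin secretion and, in young animals, proliferation.

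Signals were log2 values from Affymetrix Mouse Gene ST arrays, summarised per probe set by the robust multi-array average (RMA) method, and all levels and differences below are on that log2 scale. Because equal amounts of RNA were amplified for each array, a value is a share of the recovered RNA, and fewer cells of a type and less RNA per cell cannot be told apart. Defining markers were checked in the saline animals: 20 of 21 measured Sertoli cell markers were enriched at least 2-fold in the IPs over the inputs (median difference 2.34), whereas all 7 measured Leydig cell markers, 16 of 21 spermatogonia and spermatocyte markers and 16 of 20 spermatid markers were depleted at least 2-fold. Array medians were 6.40 and 6.44 after FSH 1 h and 6.40 and 6.40 after acyline, within the 6.36 to 6.45 of the 15 AMH-Cre IPs. On the first principal component of these 15 IPs (17.3% of the variance) the FSH 1 h arrays had the highest values, 20.2 and 23.9. The acyline arrays stood at -0.4 and 3.1, and cetrorelix replicate 1 at the other end, at -23.7. Saline IP replicates 4 and 5 lay nearest to the FSH 1 h arrays, at 9.3 and 16.3.

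The first question was which transcripts differed 1 h after FSH. In a limma fit of all 15 AMH-Cre IPs, no probe set of the 24648 tested was higher (0%) and none was lower (0%) by at least 1.5-fold at a Benjamini-Hochberg adjusted p under 0.05, and the lowest adjusted p was 0.0776. At an unadjusted p under 0.05 and the same fold, here called the unadjusted threshold, 332 probe sets were higher (1.35%) and 67 were lower (0.272%). Differences reached 1.92 and -1.97, and the quartiles of all probe sets were 0.11 and -0.11 around a median of -0.007. Of the 332 higher probe sets 173 carried no gene name in the annotation used here, as did 42 of the 67 lower ones (52.1% and 62.7%, against 26.4% of all tested). Of the 332 higher probe sets 21 were tested only because an FSH 1 h array exceeded the filter limit (a linear signal of 50 in any IP of the fit), so that these could hardly be lower. At 1 probe set per gene, 106 genes were higher and 19 lower of 15476 (0.685% and 0.123%), and in each of these the FSH 1 h arrays did not overlap the acyline arrays. Both FSH 1 h arrays lay above both acyline arrays in 21.4% of these genes and below them in 27.1%, and without the fold limit 4.91% were higher and 4.88% lower at an unadjusted p under 0.05. Lists below have 1 probe set per gene and are read against these shares. P-values measure the spread between these arrays, which in the FSH experiment came, by the study's methods, from separate animals with checked serum hormone levels.

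The same test without the cetrorelix IPs, alone or with testosterone, gave another count. The sample titles assign no saline IP to the FSH or the cetrorelix experiment, and all saline IPs were kept. In the 11 arrays of saline, acyline, FSH 1 h and FSH 4 h IPs, 66 of 24409 probe sets rose at an adjusted p under 0.05 (0.27%) and 2 fell (0.00819%). Its median standard error for this comparison was 0.122, against 0.128 in the 15-array fit. Among called probe sets it differed little in Zfp389 (0.14 against 0.15) and more in Snora20 (0.21 against 0.49) and Spo11 (0.1 against 0.22). The 66 higher probe sets held 64 distinct rows of values. None of the called probe sets was enriched in Sertoli IPs over inputs. Of the 66, 45 lay between the 2-fold limits, 20 were depleted and 1 was not tested. Both lower ones lay between the limits. Of all 24648 probe sets tested in the 15-array fit, 12.4% were enriched, 74.2% lay between and 11.2% were depleted. The fit of only the 4 arrays compared made no call at an adjusted p, and 366 higher and 90 lower at the unadjusted threshold. Below, "rose" and "fell" are used only of the probe sets called in the 11-array fit or in another fit that is named, and adjusted p-values and standard errors (SE) come from the 15-array fit unless another is named. Genes named below for passing either threshold were singled out after their values were seen.

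**Figure D1:**
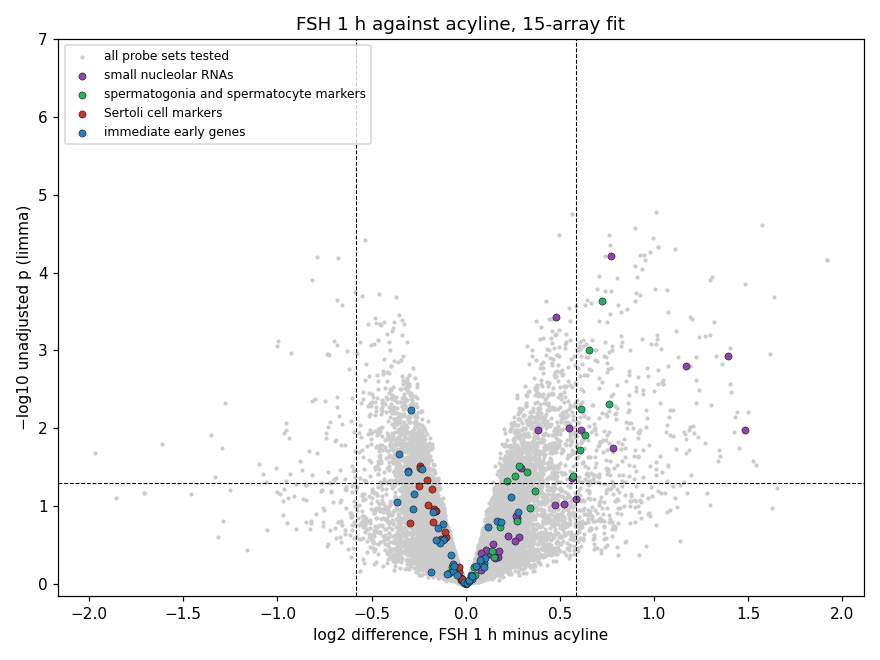
Each point is a probe set, with its log2 difference (FSH 1 h minus acyline) against -log10 of the unadjusted limma p in the 15-array fit. Dashed lines mark 1.5-fold and p of 0.05, and coloured points are 1 probe set per gene of 4 gene lists: small nucleolar RNAs and spermatogonia and spermatocyte markers lie mostly to the right of 0, Sertoli cell markers to the left, and immediate early genes on both sides, with no immediate early gene past a fold line.

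The receptor and the cyclic AMP pathway itself were measured first. Fshr, the FSH receptor, had 9.05 and 9.02 after FSH 1 h and 9.04 and 9.08 after acyline, a difference of -0.02 (95% interval -0.35 to 0.31), and it was enriched by 2.64 in the saline IPs. The 4 arrays overlapped. Of 51 listed genes of the receptor, G proteins, adenylyl cyclases, protein kinase A, phosphodiesterases, CREB family and desensitising proteins, 43 passed the filter on low signal, none passed the unadjusted threshold in either direction, and the median difference was -0.04 against -0.02 over all genes. Those with the highest levels differed little: Gnai2, a G protein subunit that inhibits adenylyl cyclase, had 11.31 and 11.26 after FSH 1 h and 11.34 and 11.36 after acyline, and Prkar1a, a regulatory subunit of protein kinase A, had 11.34 and 11.34 after FSH 1 h and 11.28 and 11.38 after acyline. Gnai1, Gnai3, Prkar2a and Pde8a, which degrades cyclic AMP, differed by -0.02 to 0.07. Without the fold limit, 7 of the 43 were lower and 1 higher at an unadjusted p under 0.05, where 4.88% of all genes were lower and 4.91% higher. The lower ones were the adenylyl cyclases Adcy2, Adcy5, Adcy6 and Adcy9, which make cyclic AMP, and Crtc1, Crtc2 and Crtc3, coactivators of CREB. Crtc3 differed most (-0.42), and Adcy2 had 8.59 and 8.56 after FSH 1 h and 8.87 and 8.80 after acyline (-0.26). The higher one was Crem, a CREB relative that is abundant in spermatids, with 9.02 and 9.0 after FSH 1 h and 8.76 and 8.60 after acyline (0.33, SE 0.14, adjusted p = 0.505), and it was depleted from the saline IPs (-1.63).

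Immediate early genes are the earliest readout of CREB, and they are where the Sertoli and Leydig cell arrays could be set side by side. Of 45 listed immediate early genes 42 were measured, and after FSH 1 h none was higher and none lower at the unadjusted threshold, which 0.685% and 0.123% of all genes passed. Their differences ran between -0.36 and 0.28 with a median of -0.06, and for 40 of the 42 the upper limit of the 95% interval lay below 1.5-fold. In Leydig IPs 1 h after LH, compared with acyline in a fit of all 24 IPs, 7 of the same 42 genes rose at an adjusted p under 0.05 and 15 were higher at the unadjusted threshold, with 16 of 25399 probe sets called higher in all (0.063%). To show the elements that such genes carry, the promoters of 3 of the genes called after LH are given from RefSeq (GRCm38.p6), 250 bases before to 50 after the start of transcription, written 5′ to 3′ on the strand of the gene.
Btg2, chr1:134079106-134079405, minus strand: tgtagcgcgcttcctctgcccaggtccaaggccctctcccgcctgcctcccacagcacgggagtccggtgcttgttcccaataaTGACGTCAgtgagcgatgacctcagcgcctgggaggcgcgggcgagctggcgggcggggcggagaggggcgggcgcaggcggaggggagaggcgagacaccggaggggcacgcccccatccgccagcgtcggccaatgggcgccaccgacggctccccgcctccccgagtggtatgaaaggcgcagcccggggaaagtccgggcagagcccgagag
Dusp1, chr17:26508423-26508722, minus strand: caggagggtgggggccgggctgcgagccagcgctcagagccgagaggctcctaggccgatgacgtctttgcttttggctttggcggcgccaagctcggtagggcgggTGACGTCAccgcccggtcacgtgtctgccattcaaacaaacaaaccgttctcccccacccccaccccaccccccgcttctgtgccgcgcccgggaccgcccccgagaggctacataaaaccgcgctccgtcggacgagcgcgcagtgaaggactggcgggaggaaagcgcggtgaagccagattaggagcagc
Nr4a1, chr15:101266596-101266895, plus strand: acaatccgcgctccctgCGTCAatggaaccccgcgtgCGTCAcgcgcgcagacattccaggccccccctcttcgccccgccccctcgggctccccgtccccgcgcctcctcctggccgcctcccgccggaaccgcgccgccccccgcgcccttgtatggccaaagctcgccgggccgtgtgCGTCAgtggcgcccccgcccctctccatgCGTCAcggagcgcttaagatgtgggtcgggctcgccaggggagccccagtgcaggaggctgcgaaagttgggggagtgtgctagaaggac
Capitals mark the palindromic cyclic AMP response element TGACGTCA in Btg2, at -166 from the start, and in Dusp1, at -143, and the shorter TGACG, searched on both strands, in Nr4a1, where it appears as CGTCA. Every TGACGTCA also holds TGACG. TGACGTCA was found in 588 of 32851 promoters of this length (1.79%), in 3 of the 44 promoters of listed immediate early genes (6.82%) and in 3 of 16 promoters of genes called after LH 1 h (18.8%). The shorter TGACG was in 6837 of the 32851 (20.8%), in 29 of the 44 (65.9%) and in 10 of the 16 (62.5%). These are counts of promoter windows, not of genes. A gene can have several windows that overlap and share a match, as Ccrl2 does. No window was available for Sik1, Enc1 and Bhlhe40, which were called after LH. A match is a description of the sequence only.

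Nr4a1, an orphan nuclear receptor induced by cyclic AMP, had 8.0 and 8.10 in Sertoli IPs after FSH 1 h and 8.08 and 7.90 after acyline (0.05, 95% interval -0.16 to 0.27). In Leydig IPs it had 11.31 and 10.17 after LH 1 h and 8.21 and 8.31 after acyline, a 5.59-fold rise (2.48, adjusted p = 9.31e-05). The Sertoli groups overlapped, while the Leydig arrays were far apart. Btg2, an antiproliferative gene, had 6.09 and 6.29 after FSH 1 h and 5.77 and 6.06 after acyline (0.28, interval -0.08 to 0.63), and in Leydig IPs 9.99 and 8.08 after LH and 6.86 and 7.13 after acyline (2.04, adjusted p = 0.039). Dusp1, a phosphatase of MAP kinases, had 7.60 and 7.80 after FSH 1 h and 7.66 and 7.53 after acyline (0.10, interval -0.19 to 0.39), and rose after LH by 1.35 (adjusted p = 0.00188). Likewise Sik1, a kinase induced by cyclic AMP, Rgs2, a regulator of G proteins, and Gadd45b, a stress-response gene, differed by -0.10, 0.03 and -0.06 after FSH 1 h, and rose by 2.07, 1.94 and 1.81 after LH. Fos and Egr1 differed by -0.01 and 0.19 after FSH 1 h, and by 2.05 and 1.71 after LH, where neither passed the adjusted threshold (adjusted p = 0.064 and 0.325). Egr1 had 9.35 and 6.72 in the LH replicates and 6.36 and 6.30 after acyline, so that replicate 1 carried its difference.

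Levels of immediate early genes after acyline differed between Sertoli and Leydig IPs in both directions. By the values above, Nr4a1 and Btg2 were lower in the Sertoli IPs, whereas Sik1 was higher. Sik1 had 9.03 and 8.73 after FSH 1 h and 9.02 and 8.95 after acyline in Sertoli IPs, against 7.74 and 7.76 in acyline Leydig IPs. The members of the list with the highest levels, Btg1, Dusp6, Per1, Ccn2, Gadd45b and Gadd45g, differed by -0.31 to 0.08 after FSH 1 h. Gadd45g, at 8.86 and 8.79 after FSH 1 h and 9.11 and 9.16 after acyline, was 1 of 5 immediate early genes that were lower at an unadjusted p under 0.05 without passing 1.5-fold, against 0 that were higher, where 4.88% of all genes were lower and 4.91% higher at that p. The others were Klf6 (-0.36), Zfp36 (-0.31), Gadd45a (-0.29) and Ier2 (-0.23).

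**Figure D2:**
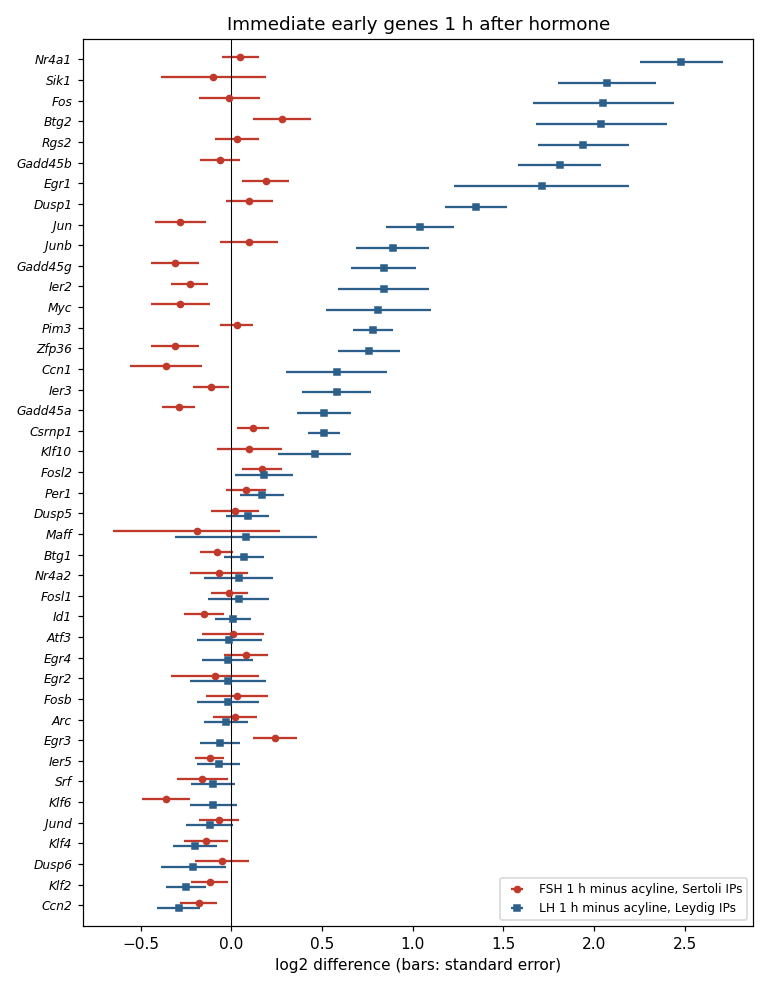
For each of 42 immediate early genes, the log2 difference (horizontal axis) 1 h after FSH in Sertoli IPs (circles) and 1 h after LH in Leydig IPs (squares), with bars of 1 standard error of the fit and genes ordered by the LH difference. The FSH values stay between -0.36 and 0.28, whereas the LH values reach 2.48.

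Whether the effects of FSH and LH differed was tested directly, as the difference of the 2 differences in the fit of all 24 IPs. Of 25399 probe sets none had a higher effect of FSH (0%) and 3 a lower one (0.0118%) at an adjusted p under 0.05, against 215 and 178 at the unadjusted threshold. The 3 were Nr4a1 (-2.43, SE 0.32, adjusted p = 0.00935), Amotl2, a junction-associated gene (-1.59, SE 0.20, adjusted p = 0.00935), and Enc1, an actin-binding protein (-1.16, SE 0.17, adjusted p = 0.0271). The calls rested on single arrays and on the design: with the replicate number as a block the adjusted p-values were 0.112, 0.0551 and 0.237, with only the 8 arrays compared they were 0.517, 0.426 and 0.532, and no call was left when either FSH 1 h array, acyline replicate 1 or Leydig acyline replicate 2 was left out. Cell type, Cre line, hormone, its dose and the length of acyline treatment differ together between the 2 comparisons and cannot be told apart.

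Textbook targets of FSH were also measured. Of 21 listed genes 18 passed the filter, with 0 higher and 0 lower at the unadjusted threshold (0.685% and 0.123% of all genes) and a median of -0.03. Inha, the inhibin alpha subunit, had 12.15 and 12.10 after FSH 1 h and 12.14 and 12.16 after acyline (-0.02, 95% interval -0.27 to 0.22). Inhbb, an inhibin beta subunit, had 9.61 and 9.62 after FSH 1 h and 9.82 and 9.81 after acyline (-0.20, adjusted p = 0.616), and Trf, the iron carrier transferrin, 11.04 and 10.91 after FSH 1 h and 11.35 and 11.20 after acyline (-0.30, adjusted p = 0.697). In both genes the FSH 1 h arrays lay below the acyline arrays, as they did in 27.1% of all genes. Ldha, which makes lactate for germ cells, the glucose transporter Slc2a1 and the protease Plat differed by 0.07, -0.17 and -0.04.

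Pde4d, a phosphodiesterase that limits cyclic AMP, separated the 2 times after FSH. Its brighter probe set had 8.24 and 8.24 after acyline, 8.18 and 8.08 at 1 h and 8.72 and 9.36 at 4 h. The difference at 1 h was -0.12 (95% interval -0.49 to 0.26). A dimmer probe set of Pde4d had 5.92 and 6.52 after acyline, 6.20 and 6.29 at 1 h and 7.76 and 7.90 at 4 h, and was called between 4 h and 1 h (1.59, adjusted p = 0.00661 in the 15-array fit). Between 4 h and 1 h, 4 probe sets were higher (0.0162%) and 2 lower (0.00811%) at the later time. Aass, an enzyme of lysine breakdown, had 8.19 and 8.28 after acyline, 7.64 and 7.90 at 1 h and 8.84 and 8.72 at 4 h (4 h against 1 h 1.01, adjusted p = 0.00612), so that the 1 h arrays were the lowest and the 4 h arrays the highest. Zswim5 had 8.53 and 8.43 after acyline, 8.21 and 8.31 at 1 h and 9.0 and 9.16 at 4 h (0.82, adjusted p = 0.0116). Pyroxd2, an oxidoreductase, had 7.92 and 7.95 after acyline, 8.03 and 8.02 at 1 h and 6.06 and 6.05 at 4 h (-1.97, adjusted p = 1.56e-05). Star, which moves cholesterol into mitochondria and marks Leydig cells, had 7.38 and 7.35 after acyline, 7.56 and 7.37 at 1 h and 8.29 and 8.49 at 4 h, with a difference of 0.10 (interval -0.19 to 0.39) at 1 h. The 1 h and 4 h comparisons share the acyline arrays.

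Eomes, Reln and Chst2, all enriched in Sertoli IPs, had lower values after FSH 1 h at the unadjusted threshold only. Eomes, a T-box transcription factor, had 6.73 and 7.23 after FSH 1 h and 7.87 and 7.96 after acyline (-0.94, SE 0.32, adjusted p = 0.374). Its 5 saline IPs ran between 7.18 and 8.21, so that FSH 1 h replicate 2 lay inside the saline range and replicate 1 below it. Reln, a large secreted glycoprotein, had 8.64 and 8.82 after FSH 1 h and 9.38 and 9.44 after acyline (-0.68, SE 0.19, adjusted p = 0.277), with 9.06 to 9.46 in saline IPs. Chst2, a sulfotransferase that modifies glycans, had 7.23 and 7.49 after FSH 1 h and 8.29 and 8.06 after acyline (-0.82, SE 0.23, adjusted p = 0.291), with 8.03 to 8.60 in saline IPs. For Reln and Chst2 both FSH 1 h arrays lay below every acyline and every saline array. At 4 h the 3 genes had 7.86 and 7.49 for Eomes, 9.36 and 9.24 for Reln and 8.15 and 8.09 for Chst2, and the difference of 4 h from 1 h had adjusted p-values of 0.378, 0.242 and 0.207.

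The 2 transcripts that fell in the 11-array fit were Slc10a6, a transporter of sulfated steroids, and Kcna6, a voltage-gated potassium channel. Slc10a6 had 5.62 and 5.57 after FSH 1 h and 6.24 and 6.53 after acyline (-0.79, SE 0.13, adjusted p = 0.0776, and 0.0338 in the 11-array fit). Kcna6 had 5.88 and 5.66 after FSH 1 h and 6.45 and 6.44 after acyline (-0.68, SE 0.11, adjusted p = 0.0776, and 0.0332 in the 11-array fit). In Kcna6 the saline IPs, at 5.86 to 6.01, lay near the FSH 1 h arrays and not near acyline. Both signals were close to the filter limit of 50 on the linear scale.

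The largest difference in this direction was in Atp10d, a lipid flippase subunit, with 6.79 and 6.93 after FSH 1 h and 8.99 and 8.67 after acyline (-1.97, SE 0.74, adjusted p = 0.413). Atp10d scattered between replicates elsewhere too, with 6.94 and 9.05 after FSH 4 h and 6.98 to 8.89 in saline IPs. Utf1 (-1.01), Mansc4 (-0.96), Aunip (-0.93), Ankrd11 (-0.93), Abhd1 (-0.79), Kmt2d (-0.72) and Pdgfra (-0.70) also passed the unadjusted threshold, and their adjusted p-values ran from 0.176 for Ankrd11 to 0.522 for Pdgfra. Of these, Atp10d, Utf1, Mansc4 and Kmt2d were enriched at least 2-fold in saline IPs, together with Igfbp3, which binds insulin-like growth factors (7.60 and 7.52 after FSH 1 h, 8.27 and 8.19 after acyline, -0.67, adjusted p = 0.319), and L1td1, an RNA-binding protein (7.79 and 7.84 after FSH 1 h and 8.29 and 8.55 after acyline, -0.61, adjusted p = 0.281).

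Among single genes, Kmt2d, a histone H3 lysine methyltransferase, had 9.06 and 8.86 after FSH 1 h and 9.79 and 9.56 after acyline, and its other probe set differed by -1.0. Ankrd11, a chromatin cofactor, had 8.41 and 8.35 after FSH 1 h and 9.37 and 9.24 after acyline (-0.93, SE 0.22). Chd7, a chromatin remodeler, had 30 probe sets, all of them lower after FSH 1 h, with differences of -0.70 to -0.31 and a median of -0.48. Of these 28 had an unadjusted p under 0.05 and 4 also passed 1.5-fold. Its brightest probe set, which did not pass 1.5-fold, had 8.87 and 8.91 after FSH 1 h, 9.52 and 9.39 after acyline and 9.29 to 9.58 in saline IPs. Probe sets of a gene share its RNA and are no replicates. Other IP-enriched transcripts lay lower without passing 1.5-fold and were picked after their values were seen. They included Lrp1, an endocytic receptor (-0.46, adjusted p = 0.119), and Utrn, a dystrophin relative (-0.34, adjusted p = 0.169). The ubiquitin ligase Huwe1 (-0.33, adjusted p = 0.351) was another. The 3066 probe sets enriched at least 2-fold in saline IPs lay lower as a class, with a median of -0.12 and quartiles of -0.21 and -0.04.

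**Figure D3:**
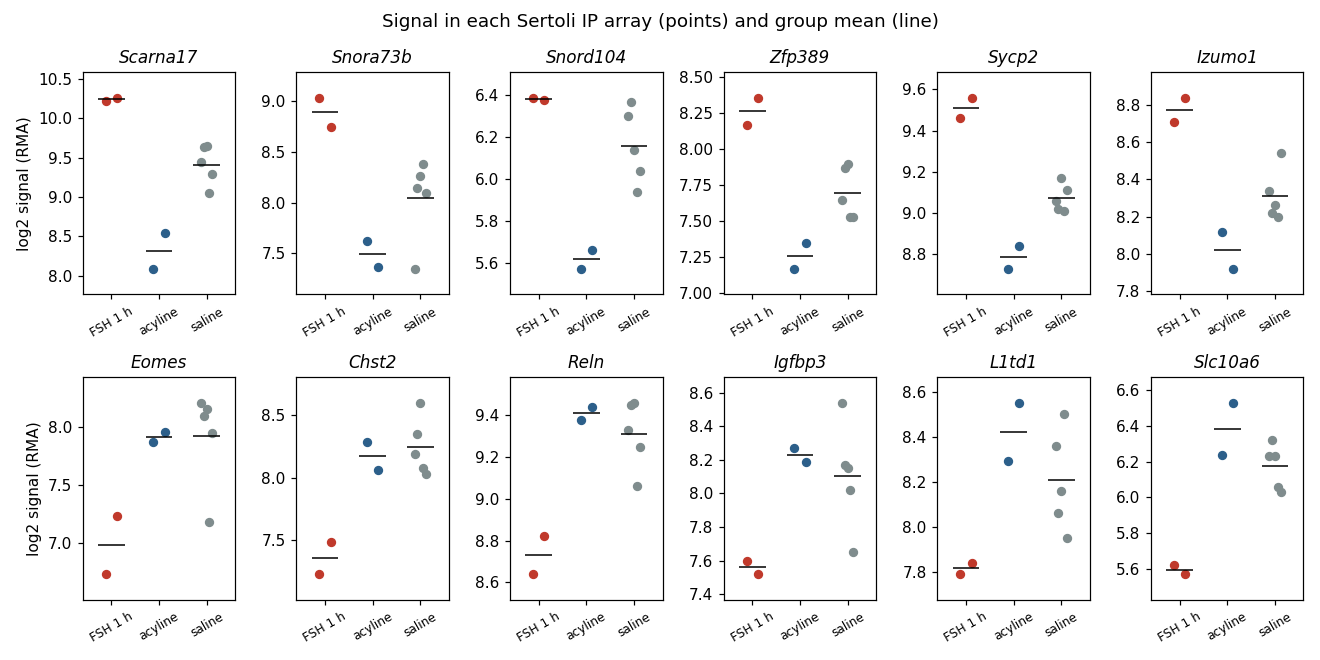
Log2 RMA signal (vertical axis, own range per panel) of 12 genes in each Sertoli IP array after FSH 1 h (2 arrays), acyline (2) and saline (5), with a line at each group mean. In the first 6 panels the FSH 1 h arrays lie above both acyline arrays, and in the last 6 they lie below.

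Small nucleolar and Cajal body RNAs were prominent among the higher transcripts. These RNAs guide the modification of ribosomal and spliceosomal RNA in the nucleus and are mostly cut out of introns of host genes. The largest positive difference was in Scarna17, a Cajal body RNA, with 10.22 and 10.26 after FSH 1 h and 8.09 and 8.54 after acyline, a 3.78-fold rise (1.92, SE 0.32, adjusted p = 0.0776, and 0.0139 in the 11-array fit). It had 8.30 and 8.31 at 4 h and 9.05 to 9.64 in saline IPs, so that the FSH 1 h arrays were above all of these. Snora20 had 7.81 and 7.76 after FSH 1 h and 6.01 and 6.59 after acyline (1.48, SE 0.49, adjusted p = 0.358). It also rose in the 11-array fit (adjusted p there 0.0252). Snora73b had 9.03 and 8.74 after FSH 1 h and 7.62 and 7.37 after acyline (1.39, SE 0.33, adjusted p = 0.176), Snora73a 8.79 and 8.60 after FSH 1 h and 7.55 and 7.50 after acyline (1.17, SE 0.29, adjusted p = 0.199), and Snord104 6.39 and 6.38 after FSH 1 h and 5.57 and 5.66 after acyline (0.77, SE 0.13, adjusted p = 0.0776). Snora73a and Snora73b are near-identical copies whose probes can share signal.

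As a family the small nucleolar RNAs lay higher. Of 51 with a probe set of their own, 27 passed the filter, 2 of them only through the FSH 1 h arrays. Among the 27 tested, 6 were higher and 0 lower at the unadjusted threshold (22.2% higher, against 0.685% of all genes), the median difference was 0.30 and the lowest 0.08, and in 22 both FSH 1 h arrays lay above both acyline arrays, against a share of 21.4% over all genes. The mean of the 27 was 6.30 and 6.40 in the FSH 1 h arrays and 5.80 and 5.99 in the acyline arrays. In other Sertoli IPs it ran from 5.79 to 5.85 after FSH 4 h, 5.8 to 6.25 after cetrorelix and 5.85 to 5.99 after cetrorelix plus testosterone. Saline IPs had 6.06 to 6.19 and inputs 6.34 to 6.47. Leydig IPs had 5.98 to 6.1 after acyline, 6.04 to 6.34 after LH 1 h, 5.89 to 6.11 after LH 4 h and 6.39 to 6.51 after saline. The number past the threshold depended on single arrays, with 3 when acyline replicate 1 was left out and 11 when acyline replicate 2 was left out. A list of 59 cytosolic ribosomal protein genes had 0 higher, 0 lower and a median of -0.02.

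Taf1d and Gas5, picked after their values were seen as genes that host such RNAs, each had a probe set that rose. Taf1d, a subunit of the selectivity factor of RNA polymerase I whose introns hold several small nucleolar RNAs, passed the unadjusted threshold on 9 of 9 probe sets (0.64 to 1.01), of which 4 had identical values and 3 rose in the 11-array fit. The brightest of these had 7.95 and 8.27 after FSH 1 h and 7.17 and 7.03 after acyline (1.01). Gas5, a noncoding host of C/D box RNAs, differed by 0.33, 1.12 and 1.30 on its 3 probe sets. Only the second rose in the 11-array fit (7.40 and 7.68 after FSH 1 h and 6.32 and 6.53 after acyline, adjusted p there 0.0151). In the 15-array fit its adjusted p was 0.163. Rmrp, the RNA of the RNase MRP complex, had 8.51 and 8.39 after FSH 1 h and 7.63 and 7.69 after acyline (0.78, adjusted p = 0.409), although it was depleted from the IPs (-2.58), and Scarna8, which passed the filter only through FSH 1 h replicate 1, had 5.78 and 5.63 after FSH 1 h and 4.91 and 5.11 after acyline (0.69, adjusted p = 0.169).

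Probe sets of microRNA genes also appear on the array. Of 101 tested, 3 were higher and 0 lower at the unadjusted threshold (2.97% higher, against 0.685% of all genes). The number higher was 2 without the filter, under median centering, under quantile normalization and with the replicate block. It was also smaller when acyline replicate 1 was left out. The array reads the precursor transcript, not the mature microRNA. Mir15b rose in the 11-array fit, with 5.85 and 5.69 after FSH 1 h and 4.29 and 4.81 after acyline (1.22, SE 0.29, adjusted p = 0.176, and 0.0463 in the 11-array fit). Its probe set passed the filter only through the FSH 1 h arrays, which alone were bright enough. Mir15b could therefore hardly be lower, and it is 1 of the 3 counted above. The gene lies in an intron of Smc4, a condensin subunit. Mir677 had 6.14 and 6.03 after FSH 1 h and 5.24 and 5.60 after acyline (0.67, SE 0.13, adjusted p = 0.124). Their mature products from RefSeq (GRCm38.p6) are shown with the seed, bases 2 to 8, in capitals, because the seeds tell which targets each could bind.
mmu-miR-15b-5p, chr3:69009775-69009796, plus strand: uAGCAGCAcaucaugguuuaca
mmu-miR-15b-3p, chr3:69009813-69009834, plus strand: cGAAUCAUuauuugcugcucua
mmu-miR-677-5p, chr10:128085291-128085312, plus strand: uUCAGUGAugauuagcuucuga
mmu-miR-677-3p, chr10:128085335-128085360, plus strand: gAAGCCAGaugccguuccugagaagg
The 4 seeds differ from each other. The levels of both precursors were low, near the filter limit.

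Germ cell transcripts lay higher after FSH 1 h too. Of 21 spermatogonia and spermatocyte markers, all of them measured, 6 were higher and 0 lower at the unadjusted threshold (28.6% higher, against 0.685% of all genes), the median difference was 0.29, and in 15 both FSH 1 h arrays lay above both acyline arrays, against a share of 21.4% over all genes. Sycp2, a protein of the synaptonemal complex, rose in the 11-array fit with 9.46 and 9.56 after FSH 1 h and 8.73 and 8.84 after acyline (0.72, SE 0.14, adjusted p = 0.121, and 0.0151 in the 11-array fit). Spo11, the enzyme of meiotic double-strand breaks, rose there with 8.78 and 8.95 after FSH 1 h and 8.01 and 8.19 after acyline (0.76, SE 0.22, adjusted p = 0.297, and 0.0229 in the 11-array fit). Hormad1, a meiotic axis protein, had 8.64 and 9.08 after FSH 1 h and 8.19 and 8.22 after acyline (0.66, adjusted p = 0.169). Sycp1, Piwil1 and Dazl, which act in meiosis, piRNA binding and translation in germ cells, differed by 0.63, 0.61 and 0.61, and in each of them replicate 2 lay above replicate 1 (9.16 and 8.33 in Sycp1, 10.66 and 10.11 in Piwil1, 9.40 and 8.58 in Dazl).

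The spermatocyte difference was not the same in the 2 arrays. Summed over the list, the linear signal was 20060 to 22300 in the FSH 1 h arrays and 17500 to 18290 in the acyline arrays. It was 18040 to 18710 in saline IPs and 38780 to 41530 in inputs. After FSH 4 h it was 16740 to 18620, and after cetrorelix alone 16890 to 18300. Cetrorelix plus testosterone IPs had 17580 to 20120, which overlapped the FSH 1 h arrays. Without FSH 1 h replicate 2 only 2 members passed the unadjusted threshold, without replicate 1 7 did, and without acyline replicate 1 3 did. Ldhc and Pgk2, glycolytic enzymes of spermatocytes, differed by 0.05 and 0.14, and Ddx4, an RNA helicase of germ cells, had 10.94 and 11.17 after FSH 1 h and 10.83 and 10.72 after acyline (0.29, adjusted p = 0.467). Uchl1, a member of the list that was enriched in the saline IPs (1.81), had 11.34 and 11.36 after FSH 1 h and 11.09 and 11.07 after acyline (0.27, adjusted p = 0.69).

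Spermatid markers lay higher to a smaller degree. Of 20 markers, all of them measured, 1 was higher and 0 lower at the unadjusted threshold (5% higher, against 0.685% of all genes), the median difference was 0.16 and no member was below 0. The gene past the threshold was Izumo1, a sperm protein needed for fusion with the egg. It had 8.71 and 8.84 after FSH 1 h and 8.12 and 7.92 after acyline (0.76, SE 0.19, adjusted p = 0.207). It rose in the 11-array fit (adjusted p there 0.0429). Prm2, a protamine, differed by 0.00 with 12.91 and 12.92 after FSH 1 h and 12.94 and 12.88 after acyline, and Odf1, a protein of the sperm tail, by 0.15. The summed signal of the list was 47220 to 48400 in the FSH 1 h arrays and 42480 to 45030 in the acyline arrays. It was 39200 to 47070 in saline IPs and 95540 to 103600 in inputs. After FSH 4 h it was 43740 to 47410, and after cetrorelix alone 41490 to 44800. Cetrorelix plus testosterone IPs had 43680 to 54240, the higher value above both FSH 1 h arrays. Other testis-specific transcripts that rose in the 11-array fit included Tssk5, a testis kinase, Catspere2, a subunit of the sperm calcium channel, Fsip2 and Spef2, proteins of the sperm tail, and 7 probe sets of the Speer cluster, each of which is assigned to several genes.

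Anln, Atad2, Hells, Lbr and Ccne2, picked after their values were seen, passed the unadjusted threshold and were not called in the 11-array fit. Anln, a scaffold of cytokinesis, had 7.79 and 8.14 after FSH 1 h and 6.58 and 6.69 after acyline (1.33, SE 0.31, adjusted p = 0.176). Atad2, a bromodomain ATPase, had 7.52 and 7.73 after FSH 1 h and 6.50 and 6.72 after acyline (1.02, SE 0.22, adjusted p = 0.169). Hells, a chromatin helicase, Lbr, the lamin B receptor, and Ccne2, a cyclin, differed by 0.78, 0.78 and 0.85 and were all depleted from the saline IPs (-1.38, -1.65 and -1.90). Zfp389, a zinc finger gene, rose in the 11-array fit with 8.17 and 8.36 after FSH 1 h and 7.17 and 7.35 after acyline (1.01, SE 0.15, adjusted p = 0.0776, and 0.0252 in the 11-array fit). Clk4, a kinase of splicing factors, also rose there (0.60, adjusted p = 0.169, and 0.0463 in the 11-array fit).

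**Figure D4:**
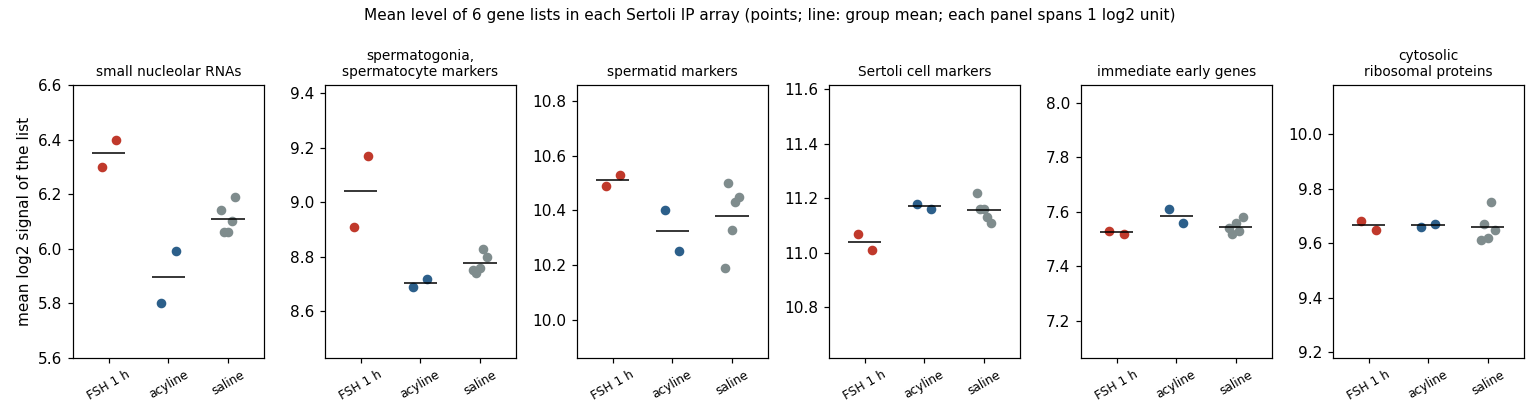
Mean log2 signal (vertical axis, 1 log2 unit in every panel) of 6 gene lists in each Sertoli IP array after FSH 1 h (2 arrays), acyline (2) and saline (5), with a line at each group mean. The FSH 1 h arrays lie above acyline for small nucleolar RNAs and both germ cell lists and below it for Sertoli cell markers and immediate early genes, and overlap it for ribosomal proteins.

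Sertoli cell markers lay slightly lower in the same arrays. Of 23 listed 21 were measured, with 0 higher and 0 lower at the unadjusted threshold, a median difference of -0.16 and both FSH 1 h arrays below both acyline arrays in 15, against a share of 27.1% over all genes. Their summed signal was 70210 to 72170 in the FSH 1 h arrays and 74880 to 76160 in the acyline arrays. It was 72930 to 77860 in saline IPs and 16220 to 19950 in inputs. After FSH 4 h it was 74220 to 77420, and after cetrorelix alone 72780 to 77050. Cetrorelix plus testosterone IPs had 68790 to 76260, the lower value below both FSH 1 h arrays. Among bright members, Clu, a secreted chaperone, had 13.40 and 13.41 after FSH 1 h and 13.39 and 13.42 after acyline, and Amhr2, the anti-Müllerian hormone receptor, 13.10 and 13.13 after FSH 1 h and 13.19 and 13.12 after acyline. Cst9, a cystatin, had 12.58 and 12.55 after FSH 1 h and 12.74 and 12.70 after acyline (-0.16, adjusted p = 0.641).

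Across all probe sets the difference after FSH 1 h ran against the enrichment in saline IPs, which were not part of the comparison. The median was -0.12 (quartiles -0.21 and -0.04) in the 3066 probe sets enriched at least 2-fold, 0.00 in the 18301 between the limits and 0.13 (quartiles 0.02 and 0.25) in the 2770 depleted at least 2-fold. Of the 332 higher probe sets 3 were enriched (0.904%) and 76 depleted (22.9%), and of the 67 lower ones 19 were enriched (28.4%) and 0 depleted, where 12.4% of all probe sets tested were enriched and 11.2% depleted. The part that carryover of whole-testis RNA had in the single-gene differences was not tested.

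**Figure D5:**
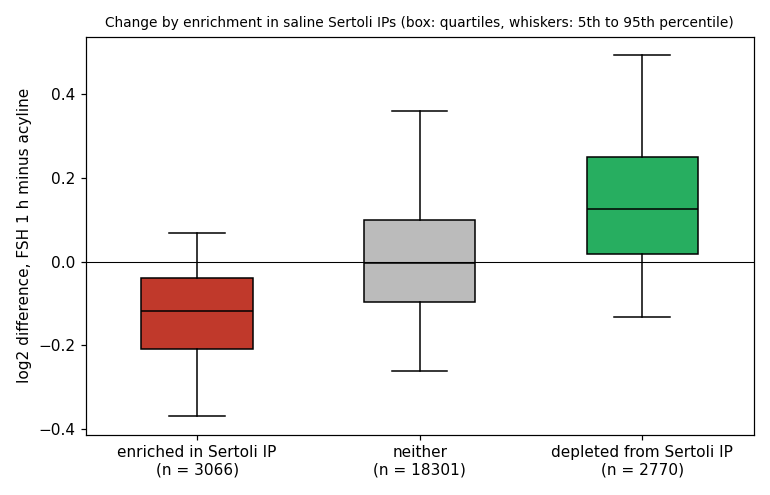
Box plot of the log2 difference (FSH 1 h minus acyline, vertical axis) of probe sets enriched in saline Sertoli IPs over inputs, of neither class, and depleted from them. Boxes span the quartiles and whiskers the 5th to 95th percentile, and the medians are -0.12, 0.00 and 0.13.

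Other gene groups of Sertoli cell function were measured. Of 18 germ cell niche and secreted factors 1 was lower (Reln, 5.56%, against 0.123% of all genes) and 0 higher, and Kitl, which supports spermatogonia, differed by -0.24 (adjusted p = 0.476). Of 18 T-box, Notch and Wnt genes 1 was lower (Eomes, also 5.56%) and 0 higher, and each of these counts is a single gene. Of 17 measured junction genes of the blood-testis barrier none passed in either direction, and their median was -0.08. Both FSH 1 h arrays lay below both acyline arrays in 13, against a share of 27.1% over all genes. Among these were Cldn3, a claudin (-0.36, adjusted p = 0.459), and Cgn, cingulin (-0.25, adjusted p = 0.377). Of the 17 junction genes, 13 were enriched in saline IPs, and the median over all enriched probe sets was -0.12. None passed in either direction among 19 glycolysis and lactate genes and 18 heat shock and stress genes, with medians of -0.03 and -0.07.

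Markers of other cells outside the tubule were measured as well. None of 7 Leydig cell, 10 macrophage, 7 peritubular myoid or 8 endothelial markers measured, nor the 1 red blood cell gene measured, passed the unadjusted threshold, with medians of 0.10, -0.06, 0.19, 0.03 and -0.11. Summed Leydig marker signal was 1076 to 1345 in the FSH 1 h arrays and 1076 to 1251 in the acyline arrays, against 38670 to 41320 in acyline Leydig IPs, and summed macrophage marker signal was 2715 to 2818 in the FSH 1 h arrays and 2500 to 2688 in the acyline arrays. The summed signal of myoid markers was 4401 to 4576 after FSH 1 h and 4210 to 4525 after acyline. That of endothelial markers was 705.2 to 766 after FSH 1 h and 703.7 to 777.6 after acyline. That of the red blood cell gene, Alas2, was 1122 to 1144 after FSH 1 h and 1196 to 1243 after acyline. Alas2 was enriched in the saline IPs over inputs (2.01), as were 2 of the 7 myoid markers. In these IPs they do not read cells outside the tubule alone. Averaged on the log2 scale, the macrophage list had 6.52 to 6.53 after FSH 1 h and 6.56 to 6.57 after acyline, the reverse of its sums, and the myoid list 8.20 and 8.20 after FSH 1 h and 8.10 to 8.12 after acyline. The macrophage and myoid means and Alas2 did not overlap between the groups, and their part in any result was not tested.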

How the data were processed

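RNA from anti-HA immunoprecipitates of AMH-Cre:RiboTag testes was amplified and hybridised to Affymetrix Mouse Gene ST arrays. The authors deposited log2 signals from RMA (version not given in the sources used here), normalized across arrays, so levels are relative. Arrays were grouped by sample title. With limma 3.58.1 in R 4.3.3, a mean per group was fitted to the 15 AMH-Cre IPs (9 residual degrees of freedom), with empirical Bayes variances and Benjamini-Hochberg adjustment over all probe sets with a linear signal over 50 in at least 1 array. A call required an adjusted p under 0.05 and 1.5-fold (2-fold between IP and input, from 5 saline IPs and 5 inputs). The LH comparison and the difference of the FSH and LH effects came from all 24 IPs. Of 35556 probe sets, 21789 had 1 gene symbol, 1621 several and 12146 none in the platform annotation used here. A gene was represented by its brightest probe set with 1 symbol.

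Genes were named by a rule: those the study names for FSH, in each direction the 12 called genes with the largest change whose arrays did not overlap and the 8 largest enriched ones, and the called and up to 4 or 6 of the brightest members of each list. No gene was called in the 15-array fit, so the rule named only genes of the study and the brightest list members. The genes at the unadjusted threshold and those called in the 11-array fit were singled out after their values were seen. So were some that passed neither, such as Lrp1, Utrn and Huwe1. Members and lists were chosen with earlier results of these data known. Alternatives were no filter, median centering, quantile normalization, other sets of arrays, an ordinary contrast, the replicate number as a block, and leaving out each array. The deviations of same-numbered FSH 1 h and acyline arrays correlated at -0.02, so the numbers were not taken to pair the samples. Scripts were tested on simulated data. Some genes are not reported here.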

Additional observations from a re-analysis of the deposited data

Results flagged for a closer look

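The effect of FSH in Sertoli IPs and that of LH in Leydig IPs, both at 1 h against acyline, differed for 3 genes by a test of the difference itself. The FSH effect was lower by a log2 difference of -2.43 for Nr4a1, -1.59 for Amotl2 and -1.16 for Enc1.

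Some single arrays of the saline groups stood apart from the other 4 arrays of their group by Dixon's criterion, in 18 of 256 groups of named genes and lists, where chance gives about 1 in 20. No such test was possible in groups of 2, so none of these arrays is an FSH 1 h or an acyline array. Saline IP replicate 1 stood apart for Aass (8.39), Atp10d (6.98), Chd7 (9.58), Pde8a (9.97), Sik1 (8.25), Snora73a (7.42) and Snora73b (7.35). Saline IP replicate 2 did so for Amhr2 (13.2) and Tnfrsf22 (7.81), saline IP replicate 4 for Eomes (7.18) and Gadd45b (9.39), and saline IP replicate 5 for Lbr (8.26) and Prkar1a (11.24). Among the inputs, replicate 1 stood apart for Amotl2 (7.40) and Ptchd3 (10.35), replicate 4 for Pyroxd2 (5.57), and replicate 5 for Cdh5 (6.81) and Taf1d (8.63).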

How the results depend on the processing

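With 2 arrays a group, 1 array can decide a call, and most differences lie near the noise. In the 15-array fit no probe set was called for FSH 1 h against acyline, and this held without the filter, under median centering, quantile normalization, an ordinary contrast, only the groups compared and the replicate block. The 11-array fit of saline, acyline, FSH 1 h and FSH 4 h IPs called 66 higher and 2 lower, and the cause was not tested. It holds all 5 saline IPs, which the titles assign to no experiment. Unadjusted p gave 332 higher and 67 lower, or 272 and 46 with an ordinary contrast. Leaving out each array gave 0 to 1 higher and 0 lower, the 1 without FSH 1 h replicate 1. The counts at the unadjusted threshold, a measure chosen after seeing the data, were 507 and 137 without the filter, where more probe sets were tested, and 282 to 434 and 85 to 104 on leaving out an array, with 104 lower without acyline replicate 1. Under the other settings they ran from 272 to 366 higher and from 46 to 90 lower, with 326 and 85 with the replicate number as a block. Median centering gave 298 and 82.

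For FSH 4 h against FSH 1 h, 6 probe sets were called, against 146 in the FSH experiment alone, 1 with the replicate block, 587 at unadjusted p, 457 with an ordinary contrast and unadjusted p, and 2 to 22 on leaving out an array (2 and 3 without FSH 1 h replicates 1 and 2, 22 without FSH 4 h replicate 1). For the difference of the FSH and LH effects, 3 were called, against 1 with an ordinary contrast, 1 with only the groups compared, 0 with the replicate block, 393 at unadjusted p, 317 with an ordinary contrast and unadjusted p, and 0 to 18 on leaving out an array (18 without LH 1 h replicate 2). It could not be fitted in the 11 arrays of the smaller fit, which hold no Leydig arrays. Of probe sets called for FSH 1 h, 0 were enriched in Sertoli IPs, which follows from there being none, and 17 of 318 with an ordinary contrast and unadjusted p, where 12.4% of all probe sets were enriched. The 123 named genes under 13 settings gave 1597 values, of which 116 passed a threshold that the 15-array fit did not pass, and 26 genes changed sign at least once. No gene was called in the 15-array fit, so no call could be lost or turned. Many of the named genes were picked for passing the unadjusted threshold. The settings at unadjusted p pass these again by that choice and are no check of them. Arrays without spike-ins show shares of RNA only, and dim probe sets, such as most small RNAs, are measured least well.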

Other observations

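Gene models with provisional names took a share of the higher transcripts. Of 583 Riken models tested, 17 were higher and 0 lower at the unadjusted threshold (2.92% higher, against 0.685% of all genes), and of 283 numbered Gm models 7 were higher and 1 lower (2.47% and 0.353%). 4930412O13Rik had 9.67 and 9.74 after FSH 1 h and 8.35 and 8.46 after acyline (1.30, SE 0.23, adjusted p = 0.103), with 8.72 to 9.15 in saline IPs. 1700006A11Rik had 10.16 and 10.35 after FSH 1 h and 9.22 and 9.30 after acyline (1.00, SE 0.16, adjusted p = 0.0776) and was lower at 4 h than at 1 h (-1.17, adjusted p = 0.0315). Both rose in the 11-array fit. Kcnab3, a potassium channel subunit, also rose there, with 7.74 and 7.85 after FSH 1 h and 6.92 and 6.71 after acyline (0.98, SE 0.16). The medians of 96 olfactory receptors and 15 beta-defensins tested were -0.01 and 0.00.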
